A study of Mus musculus with 22 samples.

Results

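Antioxidant defense in the CA1 sector of the mouse hippocampus was examined through 10 genes chosen by name: Sod1, Sod2, Sod3, Cat, Gpx1, Gpx4, Prdx6, Hmox1, Nqo1 and Txnip. All 10 were found among the 23361 genes of the expression matrix, and all 10 were among the 16978 genes tested. The rule takes rows by gene name and applies no threshold on expression, but the genes were listed with earlier results of these samples known. CA1 was microdissected from 22 female wild-type F1 mice of a Swiss Webster and DBA/C57BL6 cross, and 1 mRNA library was sequenced per mouse. Mice fed ad libitum (AL) were compared with calorie restricted (CR) mice, whose diet was reduced in carbohydrates from young adulthood. There were 5 AL and 5 CR mice at 5 months of age and 6 AL and 6 CR mice at 15 months, so that the older CR mice had also been fed the restricted diet for longer. No group carried an altered gene, and the AL mice served as controls at each age. The tissue was a bulk dissection, in which fewer cells of a type and less RNA per cell cannot be told apart.

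Reactive oxygen species are a byproduct of respiration, and the enzymes that remove them act in series. Superoxide dismutases convert superoxide to hydrogen peroxide: Sod1 in the cytosol, Sod2 in mitochondria and Sod3 outside the cell. Catalase (Cat), the glutathione peroxidases Gpx1 and Gpx4 and the peroxiredoxin Prdx6 remove peroxides, and Gpx4 and Prdx6 can reduce oxidized phospholipids. Hmox1, the inducible heme oxygenase, and Nqo1, a quinone reductase, are well known targets of the stress-responsive transcription factor Nrf2. Txnip binds and inhibits thioredoxin and responds to glucose. In the brain, astrocytes hold a large share of the glutathione and Nrf2 defense, whereas neurons depend on mitochondrial respiration and have a high rate of oxidant formation.

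Promoter sequences of the members with the narrowest and the widest spread between mice of a group, Sod1 and Txnip, are shown so that these contrasting genes can be compared at the level of sequence. Each run is the 250 bases before the RefSeq transcription start on GRCm38.p6, 5′ to 3′ on the plus strand, at chr16:90220512-90220761 and chr3:96557707-96557956. Capitals mark matches to 4 motifs, searched on both strands.
Sod1: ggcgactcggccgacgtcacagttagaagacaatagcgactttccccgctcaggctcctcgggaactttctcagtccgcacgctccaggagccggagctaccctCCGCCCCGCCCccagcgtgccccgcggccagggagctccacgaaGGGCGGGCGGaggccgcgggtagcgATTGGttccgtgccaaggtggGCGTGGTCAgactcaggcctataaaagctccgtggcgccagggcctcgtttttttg
Txnip: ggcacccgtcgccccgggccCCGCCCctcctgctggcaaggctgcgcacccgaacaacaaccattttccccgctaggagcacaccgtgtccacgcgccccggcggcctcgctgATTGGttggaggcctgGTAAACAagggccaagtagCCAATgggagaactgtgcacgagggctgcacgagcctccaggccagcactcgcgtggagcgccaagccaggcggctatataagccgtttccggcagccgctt
The motifs were the antioxidant response element core TGACNNNGC, the GC box GGGCGG, the CCAAT box and the forkhead motif GTAAACA, and matches of the GC box overlap each other in Sod1. The antioxidant response element core, the element bound by Nrf2, was present once in Sod1, as its reverse complement, 56 bases before the start (counted from the first base of the match on the plus strand), and was absent from the Txnip window. The forkhead motif was present once in Txnip, 121 bases before the start, and CCAAT boxes lay 137 and 102 bases before it. RefSeq promoter windows of 300 bases were at hand for 7 of the 10 members, the others being Sod3, Prdx6 and Hmox1. Counted per gene, over any of its windows (Gpx4 has 4), the antioxidant response element core occurred in 1 of these 7 members and in 14.0% of 27025 genes, the GC box in 7 of 7 and in 38.2%, the CCAAT box in 5 of 7 and in 41.1%, and the forkhead motif in 1 of 7 and in 4.05%. Counted per window, the shares over all 32851 windows were 12.4%, 35.7%, 37.4% and 3.65%. A match of letters is a description and is not evidence of binding.

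Levels are given as FPKM, read fragments scaled by transcript length and by library size, a scale on which genes of different length can be compared. Sod1 was the most abundant member with a mean of 299.6 FPKM over all libraries, above 98.3% of the genes tested, and Gpx4 followed with 252 FPKM. These ranges overlapped, at 251 to 377 FPKM for Sod1 and 211 to 325 FPKM for Gpx4, although Sod1 was higher than Gpx4 within 21 of 22 libraries. Prdx6 (mean 92.2 FPKM) lay apart from its neighbors in all 22 libraries. The mitochondrial Sod2 (52.2 FPKM) and the peroxidase Gpx1 (43.9 FPKM) overlapped, with Sod2 higher in 18 of 22 libraries. Cat (20.2 FPKM) was below Gpx1 and above Txnip (9.69 FPKM) in every library, although the overall ranges of Cat and Txnip overlapped. Txnip was above Sod3 in 21 of 22 libraries. The lowest members were Sod3 (4.83 FPKM), Hmox1 (4.0 FPKM) and Nqo1 (3.72 FPKM). These 3 had overlapping ranges and swapped order between libraries, with Sod3 above Hmox1 in 16 of 22 and Hmox1 above Nqo1 in 17 of 22.

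**Figure D1:**
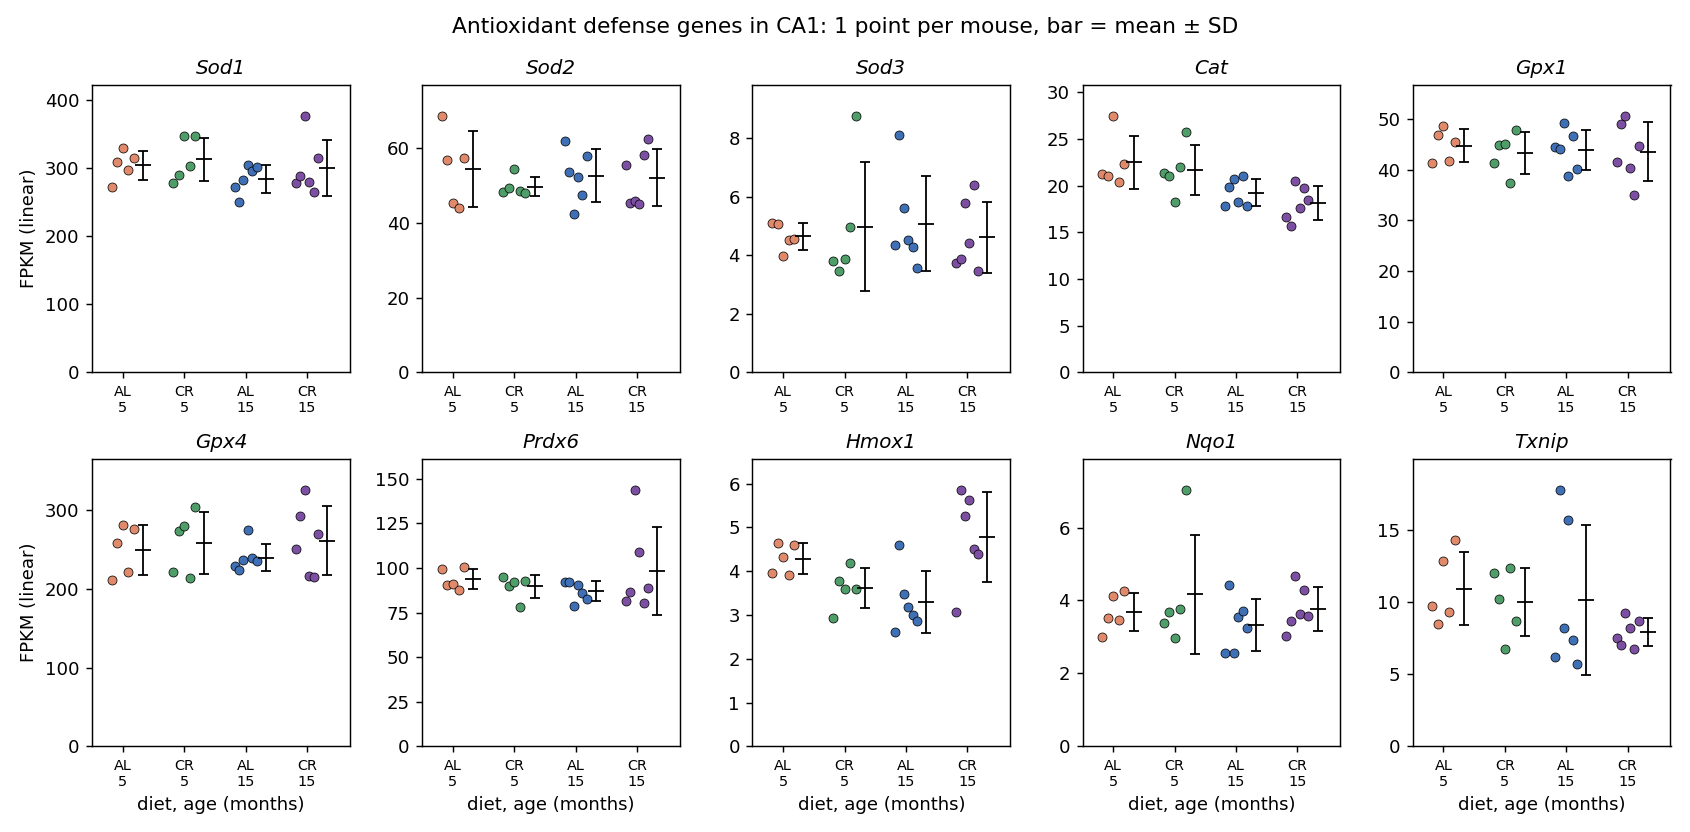
FPKM (linear axis from 0) of each antioxidant member in 4 groups, AL or CR diet at 5 or 15 months; each point is 1 mouse and the bar beside the points is the group mean ± SD (n = 5, 5, 6 and 6). The groups of every member overlap, and in Hmox1 5 of 6 CR mice at 15 months lie above 5 of 6 AL mice of that age.

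Spread between mice of the same group followed a different order from abundance. On the log2(FPKM + 0.1) scale, the within-group SD was lowest for Sod1 (0.14), Gpx1 (0.15) and Cat (0.15), against a median of 0.22 over all genes tested. Prdx6, Gpx4 and Sod2 were between 0.19 and 0.20 and Hmox1 was at 0.25. Spread was also compared with genes of a similar level. There the SDs of Sod1, Gpx1 and Cat were above 20.3%, 44.9% and 44.0% of genes. Those of Gpx4, Prdx6 and Sod2 were above 49.7%, 62.9% and 69.6%. The largest within-group SDs belonged to Nqo1 (0.31), Sod3 (0.39) and Txnip (0.44), and that of Txnip was above 91.5% of the 5332 genes of a similar level.

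No antioxidant member passed the test for a difference with age, with diet at either age, or in how age and diet combined. This was tested with limma on log2(FPKM + 0.1) in 1 fit of all 22 libraries, with two-sided p-values adjusted over all 16978 genes (Benjamini-Hochberg), and genes under 0.05 were called. Between AL mice at 15 and 5 months, 0 of 10 members were called, whereas 20.6% of all genes were. Between CR and AL mice at 15 months, 0 of 10 were called against 0.742% of all genes, a background at which few calls among 10 genes could occur. For the diet at 5 months and for the age by diet interaction, 0% of all genes were called, so that the absence of members there says nothing particular about them. At an unadjusted p under 0.05 there were 2 members for age (Cat and Hmox1), 1 for CR at 15 months (Hmox1), 0 for CR at 5 months and 1 for the interaction (Hmox1). Of all 16978 genes, 5972, 2902, 789 and 1301 were under 0.05 in the same order of contrasts, so such members are not unusual. No member had groups that did not overlap, against 14% of all genes for age in AL mice and 0.984% for CR at 15 months.

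With age in AL mice, fitted log2 differences of the members (15 minus 5 months) ranged from -0.39 for Hmox1 to 0.081 for Sod3. They were negative for 9 of 10 members, with a median of -0.10 against -0.0018 over all genes, although under quantile normalization Sod1, Sod2, Gpx1 and Gpx4 turned positive. The median size of the difference, regardless of sign, was 0.10 for the members and 0.20 for all genes.

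**Figure D2:**
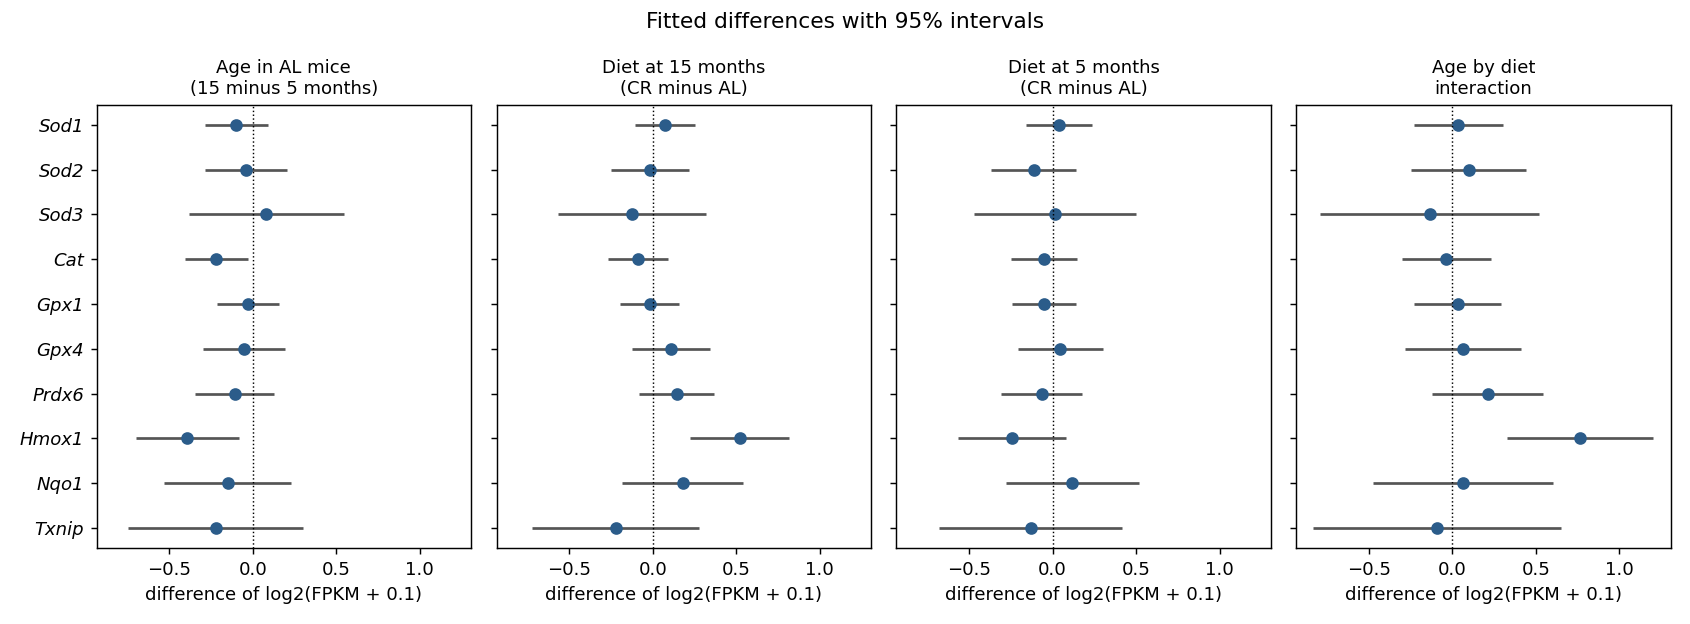
Fitted differences of log2(FPKM + 0.1) for the 10 members in the 4 contrasts, with 95% intervals from the limma fit; positive values are higher at 15 months, or higher in CR. Intervals that exclude 0 before adjustment belong to Cat and Hmox1 for age, and to Hmox1 for diet at 15 months and for the interaction; no member passed the adjusted threshold.

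Heme oxygenase 1, which degrades heme to biliverdin, iron and carbon monoxide, came nearest to the threshold. The gene lies on the plus strand of chromosome 8, from 75093621 to 75100589 on GRCm38 (the mm10 build of the files), and its exons overlap those of no other annotated gene. In AL mice at 5 months, Hmox1 was at 3.95, 4.65, 4.32, 3.90 and 4.60 FPKM. In CR mice at 5 months it was at 2.94, 3.78, 3.59, 4.20 and 3.59 FPKM. The younger groups thus overlapped, and the CR mice reached lower values. In AL mice at 15 months the lowest, median and highest values were 2.61, 3.10 and 4.60 FPKM, and in CR mice of that age they were 3.08, 4.89 and 5.86 FPKM. Only 1 mouse on each side bridged the older groups: replicate 1 of the AL mice at 4.60 FPKM, where the other 5 reached at most 3.48 FPKM, and replicate 0 of the CR mice at 3.08 FPKM, where the other 5 started at 4.39 FPKM.

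Group means of Hmox1 were 4.29 ± 0.351 FPKM (SD, n = 5) in AL and 3.62 ± 0.454 FPKM (n = 5) in CR mice at 5 months, and 3.29 ± 0.705 FPKM (n = 6) in AL and 4.79 ± 1.03 FPKM (n = 6) in CR mice at 15 months. For age in AL mice, the log2 difference was -0.39 (SE 0.15, adjusted p = 0.0667 by limma), and Hmox1 ranked 4087 of 16978 genes by p. For CR against AL at 15 months it was 0.52 (SE 0.14, adjusted p = 0.0800 by limma), which corresponds to 43.6% higher with a 95% interval of 16.95% to 76.3% before adjustment. The interaction was 0.76 (SE 0.21, unadjusted p = 0.00164 and adjusted p = 0.608 by limma), the smallest p of the members in this contrast and rank 42 of 16978 genes. At 5 months the diet difference was -0.24 (SE 0.16, adjusted p = 1 by limma). Hmox1 therefore remained uncalled in all 4 contrasts. The outcome at 15 months depended on single mice. Without CR replicate 0 the diet difference was 0.64 (adjusted p = 0.0126 by limma), while calls over all genes in that contrast rose from 126 to 732. The age difference in AL mice passed as well (adjusted p = 0.0302 by limma). Its size was unchanged at -0.39, since no AL mouse was removed and only the shared spread and the adjustment moved. Without AL replicate 1 the age difference was -0.49 (adjusted p = 0.0213 by limma).

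Of the 11 marker lists, only those of erythrocytes and astrocytes ranked the 4 groups by summed medians as the means of Hmox1 did. The dentate gyrus list differed from that order only in placing AL mice at 5 months highest. These lists were picked out for their match, and the remaining lists ordered the groups in other ways. Astrocyte markers had medians of 834 FPKM in AL and 773 FPKM in CR mice at 5 months. At 15 months they had 767 FPKM in AL (676 to 901) and 872 FPKM in CR mice (737 to 1113). The summed level of the erythrocyte markers, over the 3 of 6 listed genes that were tested (Hba-a1, Hba-a2 and Alas2), had medians of 5.02 FPKM in AL and 4.48 FPKM in CR mice at 5 months and of 1.15 FPKM in AL and 9.01 FPKM in CR mice at 15 months. Ranges were wide, from 0.764 to 10.5 FPKM in AL and from 1.01 to 12.02 FPKM in CR mice at 15 months, and none of the 3 genes was at 0 throughout a group. CR replicate 0, the mouse with the lowest Hmox1 of its group, also had the lowest erythrocyte score (-1.68 on the mean log2 scale), but AL replicate 0, which had the lowest Hmox1 of all 22 libraries, had the highest erythrocyte score of its group (0.94). Dentate gyrus markers, summed over 6 genes, had medians of 65.1 FPKM in AL and 41.3 FPKM in CR mice at 5 months and of 33.3 FPKM in AL (13.2 to 46.9) and 57.1 FPKM in CR mice (12.3 to 143.5) at 15 months. At 15 months CR replicate 0 had the lowest dentate gyrus score of its group as well (0.091), whereas AL replicate 0 had the highest of its group (2.26). The part of the erythrocyte and dentate gyrus lists in the Hmox1 result was not tested. Microglia markers, another source of Hmox1, had summed medians of 166 FPKM in AL and 161 FPKM in CR mice at 15 months, with ranges of 92.1 to 194 and 134 to 246 FPKM.

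Of 13 listed genes for heme, iron and metal handling, 0 were called for CR at 15 months and 5 (38.5%) for age in AL mice, 1 higher and 4 lower, against 0.742% and 20.6% of all genes. The list holds the constitutive heme oxygenase Hmox2, the biliverdin reductases, both ferritin chains, the metallothioneins and the iron transporters.

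Catalase, which breaks down hydrogen peroxide in peroxisomes, was the other member with an unadjusted p under 0.05 for age. The Cat gene is on the minus strand of chromosome 2, from 103453849 to 103485160 on GRCm38. Cat was at 21.3, 21.0, 27.5, 20.4 and 22.3 FPKM in AL mice at 5 months and at 21.3, 21.1, 18.3, 22.04 and 25.7 FPKM in CR mice at 5 months. At 15 months its lowest, median and highest values were 17.8, 19.1 and 21.1 FPKM in AL mice and 15.7, 18.1 and 20.5 FPKM in CR mice. The older groups lay toward the lower end but overlapped the younger ones. For age in AL mice the log2 difference was -0.22 (SE 0.090, unadjusted p = 0.0252, adjusted p = 0.0897 by limma), or -14.0% with an interval of -24.5% to -2.06%. By p, Cat ranked 4776 of 16978 genes in that contrast. The diet differences were -0.089 at 15 months and -0.052 at 5 months, with adjusted p = 0.622 and 1 by limma. With the library medians set equal, the age difference of Cat was -0.26 (adjusted p = 0.0427 by limma).

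Differences of the superoxide dismutases were bounded most closely for Sod1. Sod1 averaged 304 ± 21.6 FPKM in AL mice at 5 months, 312.6 ± 32.1 FPKM in CR mice at 5 months, 284 ± 20.4 FPKM in AL mice at 15 months and 300.3 ± 41.1 FPKM in CR mice at 15 months (SD, n = 5, 5, 6 and 6). The 95% interval of its age difference in AL mice was -18.1% to 6.54%, that of CR at 15 months was -7.24% to 19.2% and that of CR at 5 months was -10.6% to 17.7%. Sod2, the mitochondrial enzyme, averaged 54.4 ± 10.1, 49.7 ± 2.64, 52.5 ± 7.04 and 52.0 ± 7.58 FPKM in the same order of groups. Its intervals were -17.8% to 15.1% for age, -15.8% to 16.2% for CR at 15 months and -22.4% to 10.4% for CR at 5 months. These intervals leave room for differences of that size in either direction, since missing the threshold does not show that the groups were alike.

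The secreted dismutase Sod3 was less precise. It was at 5.12, 5.07, 3.98, 4.51 and 4.57 FPKM in AL mice at 5 months and at 3.81, 3.46, 3.86, 4.98 and 8.77 FPKM in CR mice of that age. At 15 months its lowest, median and highest values were 3.58, 4.45 and 8.13 FPKM in AL mice and 3.46, 4.14 and 6.41 FPKM in CR mice. Both high values came from single mice, CR replicate 4 at 5 months and AL replicate 1 at 15 months. Intervals of the Sod3 differences ran from -23.4% to 46.1% for age, from -32.5% to 24.8% for CR at 15 months and from -27.9% to 41.3% for CR at 5 months.

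Among the peroxidases, group means of Gpx1 were close to each other. Gpx1, which reduces hydrogen peroxide with glutathione, averaged 44.8 ± 3.18 FPKM in AL mice at 5 months, 43.3 ± 4.06 FPKM in CR mice at 5 months, 43.9 ± 3.93 FPKM in AL mice at 15 months and 43.5 ± 5.81 FPKM in CR mice at 15 months. Its age interval in AL mice was -13.8% to 11.4% and its interval for CR at 15 months was -12.6% to 11.6%. Gpx4, which protects membranes from lipid peroxidation, averaged 249 ± 31.5, 258 ± 39.1, 239 ± 17.6 and 261 ± 43.6 FPKM in the same order. Its intervals were -18.5% to 14.3% for age and -8.12% to 26.9% for CR at 15 months.

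Prdx6, a peroxiredoxin that is abundant in astrocytes, averaged 93.8 ± 5.68, 89.6 ± 6.62, 87.0 ± 5.65 and 98.3 ± 24.6 FPKM in AL and CR mice at 5 months and AL and CR mice at 15 months. The wide SD of the older CR group came from replicate 2 at 144 FPKM and replicate 3 at 109 FPKM, whereas the other 4 mice were between 80.6 and 88.5 FPKM. The log2 difference for CR at 15 months was 0.15 (adjusted p = 0.505 by limma), and without replicate 2 of that group it was 0.029. Reads of Prdx6 could be shared with its paralog Prdx6b, which did not exceed 0.0251 FPKM in any library.

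Nqo1, a classical Nrf2 target, was at 2.999, 3.52, 4.13, 3.46 and 4.27 FPKM in AL mice at 5 months and at 3.39, 3.67, 2.97, 3.76 and 7.04 FPKM in CR mice of that age. At 15 months the lowest, median and highest values were 2.56, 3.40 and 4.41 FPKM in AL mice and 3.02, 3.60 and 4.66 FPKM in CR mice. All groups overlapped, and 1 CR mouse at 5 months stood above the rest. The fitted differences were -0.15 for age, 0.18 for diet at 15 months and 0.12 for diet at 5 months on the log2 scale (adjusted p = 0.590, 0.624 and 1 by limma).

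Txnip, the thioredoxin inhibitor, was the most variable member. It was at 9.75, 8.46, 12.8, 9.29 and 14.3 FPKM in AL mice and at 12.05, 10.2, 6.77, 12.4 and 8.69 FPKM in CR mice at 5 months. At 15 months the lowest, median and highest values were 5.72, 7.78 and 17.8 FPKM in AL mice and 6.72, 7.86 and 9.25 FPKM in CR mice. The older AL group held 2 mice at 15.7 and 17.8 FPKM and 4 mice at or under 8.19 FPKM, whereas no older CR mouse was above 9.25 FPKM. The difference in spread between these groups (SD 5.21 and 0.980 FPKM) was not tested. Log2 differences were -0.22 for age and -0.22 for CR at 15 months, with intervals of -40.4% to 23.3% and -39.3% to 21.3%. Exons of Txnip (chromosome 3, 96557957 to 96561883 on the plus strand of GRCm38) overlap the antisense gene Gm15441, and because the library kit did not mark strand, reads from either strand cannot be told apart. Gm15441 was listed at a median between 0.189 and 0.214 FPKM in the 4 groups.

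Libraries that stood apart carried several of the extreme member values. CR replicate 4 at 5 months had the highest summed choroid plexus markers, 366 FPKM over 11 genes against at most 40.6 FPKM in the AL mice of that age and 8.44 FPKM at 15 months, and it held the highest Sod3 and Nqo1 of all libraries. AL replicate 1 at 15 months had the highest score of the vessel wall and fibroblast markers (3.16), and it held the highest Txnip of all libraries and the highest Hmox1, Nqo1 and Sod3 of its group. CR replicate 2 at 15 months had the highest astrocyte score (6.12) and the highest Prdx6, Sod1 and Gpx4 of all libraries. With the choroid plexus score as a covariate, the log2 difference for CR at 5 months moved from 0.013 to -0.31 for Sod3 and from 0.12 to -0.17 for Nqo1, and with the astrocyte score that of Prdx6 for CR at 15 months moved from 0.15 to 0.066, with no member called under either. The part of the vessel wall markers was not tested as a covariate. With all 3 libraries left out, an alternative chosen after seeing the data, Hmox1 was called for age in AL mice (-0.49, adjusted p = 0.0246 by limma), and no other member was called in any contrast. Over all genes, 19.9% were called for age in that fit.

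**Figure D3:**
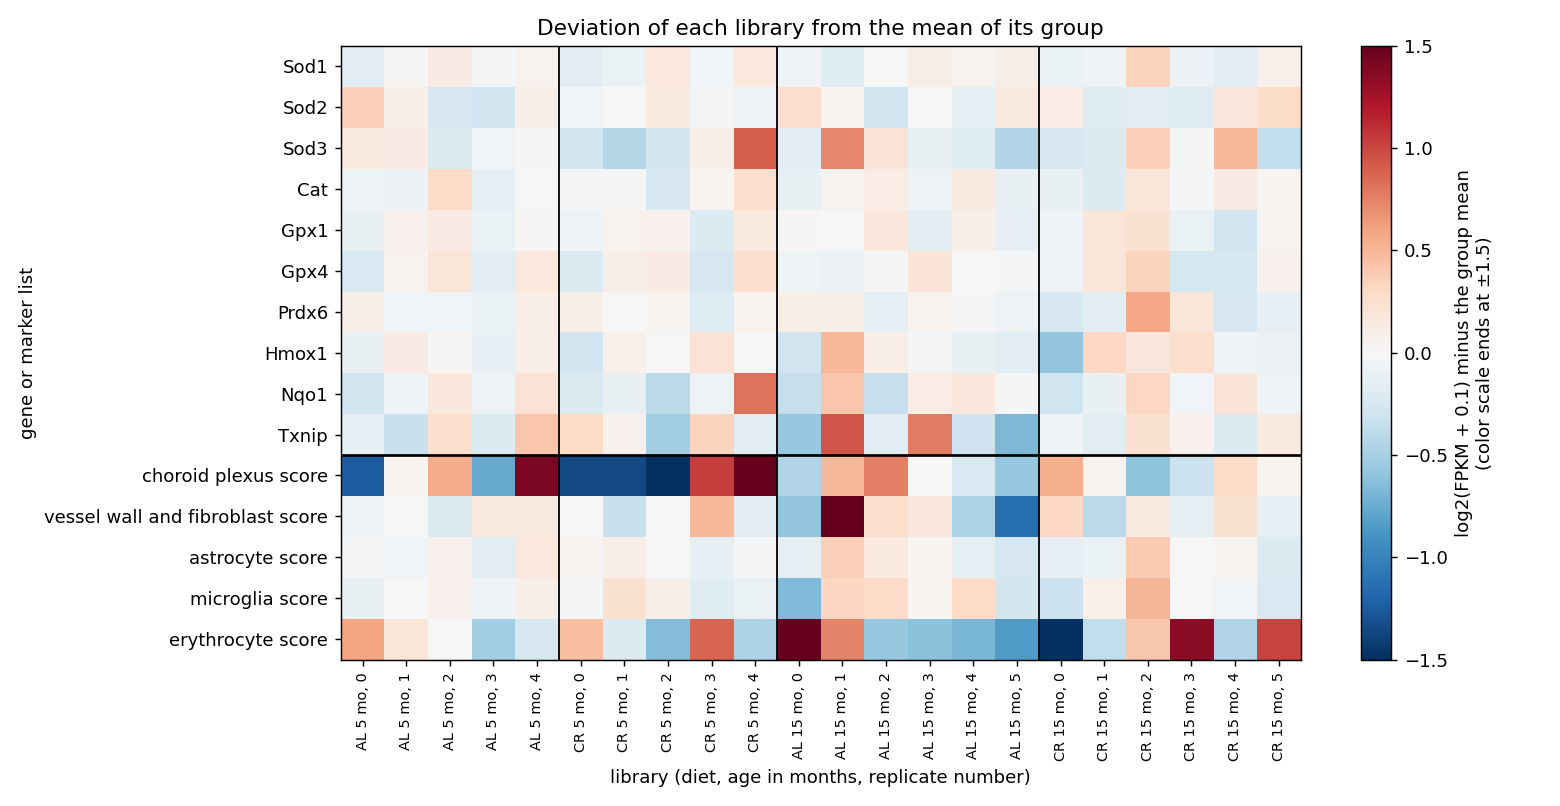
Deviation of each library (columns, grouped by diet and age) from the mean of its own group on the log2(FPKM + 0.1) scale, for the 10 members (upper rows) and 5 marker list scores (lower rows); red is above the group mean and blue below. CR replicate 4 at 5 months is red in choroid plexus, Sod3 and Nqo1, and AL replicate 1 at 15 months is red in vessel wall, Sod3 and Txnip.

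The tissue carried the markers of CA1, with summed CA1 pyramidal neuron markers between 83.4 and 361 FPKM, but neocortex and subiculum markers were present as well and differed with age. The region score, the neocortex and subiculum score minus the CA1 score, was between -2.31 and -1.01 in AL mice at 5 months and between -0.34 and 0.69 in AL mice at 15 months, and these ranges did not overlap. With the region score as a covariate, the age difference of Hmox1 was -0.037 and that of Cat was -0.11 on the log2 scale, with adjusted p = 0.960 and 0.490 by limma. Over all 16978 genes, calls for age fell from 3502 to 1 with this covariate. Age and region score cannot be told apart in AL mice, so these smaller differences have no assigned source. The diet difference of Hmox1 at 15 months was then 0.41. The region score of CR mice at 15 months was between -1.71 and 0.60. Its median was -0.15 in these mice and 0.060 in the AL mice of that age, so the older groups were not matched in region either. Median FPKM of the tested genes was between 8.01 and 8.65 per library, 18281 to 19175 genes were above 0, and the read depth behind single values is unknown.

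Within groups, some members deviated together from mouse to mouse. Over the 22 libraries, taken as deviations from the group mean, the highest correlations of the 45 pairs were Sod1 with Gpx4 (Pearson r = 0.79, Spearman rho = 0.76) and Gpx1 with Gpx4 (r = 0.72, rho = 0.70). They were 0.73 and 0.62 without the 2 libraries farthest from the median of the first gene. Cat with Nqo1 had r = 0.67 (0.57 without 2 libraries), whereas Sod3 with Nqo1 had r = 0.67 but 0.31 without 2 libraries, a relation that rested on those libraries. The median r of all pairs was 0.24, 6 pairs were above 0.5 and the lowest was -0.38. The points of a pair share library, depth and dissection, and these correlations are given as a description.

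Among 13839 genes with a mean of at least 1 FPKM, those most like Hmox1 by the same within-group measure were Gpd1 (r = 0.81), 2310008H04Rik (r = 0.79) and Pold4 (r = 0.78). For Cat they were Gulp1 (r = 0.77), Mia (r = 0.75) and Ctbs (r = 0.74). For Prdx6 they were Cldn10 (r = 0.86), Hmgn1 (r = 0.85) and H2afv (r = 0.84), and these fell to 0.66, 0.64 and 0.58 without the 2 libraries farthest from the median of Prdx6. By the same measure, the values were 0.80, 0.65 and 0.76 for Hmox1 and 0.74, 0.62 and 0.77 for Cat, in the order named.

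For the other genes of antioxidant defense, the share called for age in AL mice was near that of all genes. Of 79 genes in 9 lists, 18 were called (22.8%, against 20.6% of all genes), 7 higher and 11 lower at 15 months. With the library medians set equal, the split was 3 higher and 16 lower. That setting moved the split of all called genes in the same direction, from 1809 higher and 1693 lower to 1441 higher and 2286 lower. For the diet at either age and for the interaction, 0 of 79 were called by limma, with 9 (diet at 15 months), 2 (diet at 5 months) and 5 (interaction) at an unadjusted p under 0.05. Of all 16978 genes, 2902, 789 and 1301 were under 0.05 in these 3 contrasts. The count called for age was 10 (12.7%, against 14.0% of all genes) without AL replicate 2 at 5 months and 8 (10.1%, against 12.8% of all genes) with the choroid plexus score as a covariate. With the region score it was 0, where 1 gene of all tested was called.

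The glutathione S-transferases, which conjugate glutathione to reactive compounds, held the largest changes in both directions among the called genes of the 9 lists. Gsta4, which detoxifies the lipid peroxidation product 4-hydroxynonenal, fell in AL mice from 87.8 ± 11.1 FPKM at 5 months (range 70.2 to 97.0, n = 5) to 53.0 ± 5.44 FPKM at 15 months (47.2 to 59.5, n = 6), a log2 change of -0.72 (SE 0.13, adjusted p = 0.000866 by limma). The groups did not overlap. In CR mice Gsta4 was at 85.3 ± 12.1 FPKM at 5 months and at 59.6 ± 11.5 FPKM at 15 months. Gstm7 fell from 22.1 ± 3.80 to 12.7 ± 2.33 FPKM in AL mice (-0.80, adjusted p = 0.0410 by limma), while Gstt1 rose from 5.59 ± 2.497 to 11.4 ± 4.61 FPKM (1.03, adjusted p = 0.0495 by limma). Both Gstm7 and Gstt1 lay close to the threshold. Of the 22 libraries left out in turn, 9 cost Gstm7 its call (all 5 AL mice at 5 months and AL replicates 0, 1, 3 and 5 at 15 months, adjusted p up to 0.0961) and 13 cost Gstt1 its call (AL replicates 2, 3 and 4 and CR replicates 3 and 4 at 5 months, AL replicates 0, 2, 4 and 5 and CR replicates 1, 3, 4 and 5 at 15 months, adjusted p up to 0.144). No single library did so for Gsta4. Members of these transferase families have close relatives, so the assignment of their reads is uncertain. Over the list, 3 of 11 genes were called (27.3%, against 20.6% of all genes), 1 higher and 2 lower.

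Metallothioneins, small proteins that bind zinc and copper and scavenge radicals, were lower in older AL mice. Mt2 fell from 278 ± 19.4 FPKM at 5 months (258 to 299.5) to 186 ± 42.4 FPKM at 15 months (121 to 225), a log2 change of -0.61 (SE 0.16, adjusted p = 0.0108 by limma). In CR mice Mt2 was at 178 ± 19.0 FPKM at 5 months and was at 162 ± 42.8 FPKM at 15 months, and neither diet difference was called. At 5 months that difference was -0.65 on the log2 scale (unadjusted p = 0.000931, adjusted p = 0.824 by limma), in a contrast where no gene was called. The CR mice were between 152 and 199 FPKM, all below the AL mice. For that contrast, 231 of all 16978 genes had groups that did not overlap. By their log2 changes, Mt1 (-0.53), Mt3 (-0.54) and the ferritin heavy chain Fth1 (-0.53) were also lower, and the biliverdin reductase Blvra (0.35) was higher.

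Among the remaining lists, the quinone reductases and other repair genes had 5 of 12 called for age (41.7%, against 20.6% of all genes). The ubiquinone reductase Aifm2, a suppressor of ferroptosis, rose from 2.78 ± 0.456 to 4.09 ± 0.328 FPKM in AL mice (0.55, adjusted p = 0.0130 by limma) with no overlap, and was at 2.99 ± 0.218 and 3.12 ± 0.800 FPKM in CR mice at 5 and 15 months. The methionine sulfoxide reductases Msra (-0.54) and Msrb2 (-0.51) and Park7 (-0.31) were lower and Oxr1 (0.54) was higher. Arrdc1, an arrestin relative of Txnip, rose from 4.33 ± 0.521 to 7.53 ± 0.675 FPKM (0.79, adjusted p = 0.00139 by limma), and the ranges in AL mice were 3.72 to 4.86 FPKM at 5 months and 6.60 to 8.23 FPKM at 15 months. In CR mice at 15 months Arrdc1 was at 5.16 ± 1.35 FPKM, a log2 difference from AL of -0.57 with adjusted p = 0.0600 by limma, the smallest of the 79 genes for that contrast. Its relative Arrdc4 (-0.58) was lower with age. The Nrf2 partner Mafg (0.39) and the Nrf2 competitor Bach1 (0.29), a repressor of Hmox1, were higher with age, and Glrx3 (-0.39) was lower.

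Lists with no called gene for age were the 5 other peroxiredoxins, the 4 other glutathione peroxidases and the 8 genes of the thioredoxin system. Of these, 4 peroxiredoxins, 2 glutathione peroxidases and 0 thioredoxin system genes were at an unadjusted p under 0.05, as were 5972 of all 16978 genes. The 2 called genes of 9 among the Nrf2 regulators did not include Nfe2l2, which encodes Nrf2 itself and whose difference for CR at 15 months was 0.30 (adjusted p = 0.253 by limma).

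**Figure D4:**
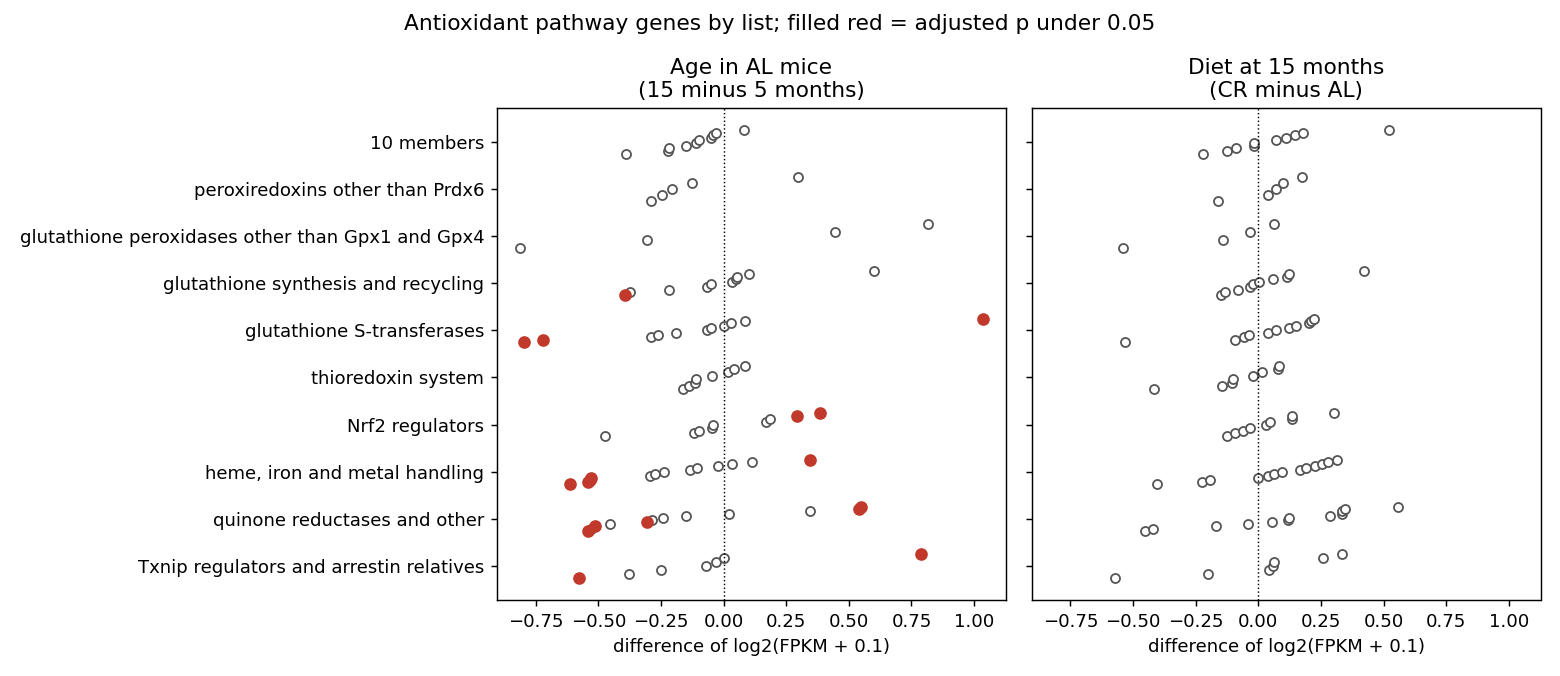
Fitted differences of log2(FPKM + 0.1) for the 10 members and the 79 other antioxidant genes by list, for age in AL mice (left) and for CR against AL at 15 months (right); each circle is 1 gene and filled red circles have an adjusted p under 0.05. The 18 red circles are all in the age panel and none is in the row of the 10 members.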

How the data were processed

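CA1 mRNA was sequenced with paired-end reads on a library kit that does not mark strand, 1 library per mouse. The authors aligned reads to mm10 with TopHat, removed duplicates with Picard and deposited FPKM values from Cufflinks, with corrections for fragment bias and multiply mapped reads. The annotation release is not given in the sources used here. Whole reads could not be recovered from the FPKM steps (at most 0.288% of low genes lay on a common ratio, tolerance 0.001), so depth and counting error are unknown. Precision therefore rests on the variation among mice.

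Genes with a mean of at least 0.1 FPKM (16978 of 23361) were tested as log2(FPKM + 0.1), a scale that understates changes of low genes, with limma 3.58.1 in R 4.3.3 (4 group means in 1 fit, eBayes with trend, two-sided, Benjamini-Hochberg adjustment over all genes within a contrast, threshold 0.05). The interaction is the diet difference at 15 months minus that at 5 months. Percent changes are on the FPKM + 0.1 scale. Summaries used Python 3.11.15 (pandas 2.3.3, numpy 2.4.6) and plots matplotlib 3.10.9. Gene overlaps were read from GENCODE M21 on GRCm38, and promoters from RefSeq on GRCm38.p6. The steps were tested on simulated data.

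The 10 members, the 79 other pathway genes in 9 lists and the 11 marker lists were chosen with earlier results of these data known. Named pathway genes with group values are the called genes with the 3 largest increases and 3 largest decreases per contrast; the remaining called genes were named after their values were seen, as was Nfe2l2. Genes most like a member were listed for the 3 members with the smallest unadjusted p. A list score is the mean log2(FPKM + 0.1) of its tested genes (82 of 86 marker genes). Alternatives were pseudocounts of 1 and 0.01, all genes above 0, a mean of at least 1 FPKM, a common median, quantile normalization, no trend, the replicate number as a block, a fit of only the 2 groups, 3 marker scores as covariates and each library left out. NanoString values were not used here.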

Additional observations from a re-analysis of the deposited data

Results flagged for a closer look

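Within each group of 5 or 6 mice, the highest and lowest value of each member was compared with its nearest neighbor by Dixon's ratio at the 95% level. Of 40 groups tested, 5 had a mouse far from the others, where chance gives about 1 in 20 groups. In CR mice at 5 months, replicate 4 stood above the others in Sod3 at 8.77 FPKM and in Nqo1 at 7.04 FPKM, the library with the highest choroid plexus markers. Replicate 2 of that group stood above the others in Sod2 at 54.3 FPKM. In AL mice, Cat was at 27.5 FPKM in replicate 2 at 5 months, and Gpx4 was at 273.8 FPKM in replicate 3 at 15 months.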

How the results depend on the processing

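No member was called in any contrast by the fit described, and 35 alternatives gave 1390 fold changes, of which 1295 kept their direction and side of the threshold, 9 passed it (8 of Hmox1 and 1 of Cat) and 86 reversed. The reversed values were at most 0.31 in size, with adjusted p of at least 0.571. For age in AL mice, 2 members were called with a common median, and 1 (Hmox1) with quantile normalization, with the replicate number as a block and with the 3 libraries that stand apart left out; leaving out single libraries gave 0 to 1 called members, both for age and for CR at 15 months. Over 31 pairs of same-numbered libraries the deviations correlated between -0.14 and 0.16, and only 2 pairs exceeded 0.1. The mice were therefore not treated as pairs, although these values cannot show what the replicate numbers stand for. With the replicate block, Hmox1 was -0.37 for age (adjusted p = 0.0260 by limma) and 0.52 for CR at 15 months (adjusted p = 0.0253 by limma), so 1 member was called in each contrast, and 1 pathway gene was called for CR at 15 months. Over all genes, the block raised the calls from 3502 to 3754 for age and from 126 to 323 for CR at 15 months. Over all alternatives the adjusted p of Hmox1 ranged from 0.0213 to 0.960 for age and from 0.0126 to 0.313 for CR at 15 months, and its direction was kept in both. The cause of these changes was not tested. The depth behind each value is unknown. Without CR replicate 0 at 15 months, 4 pathway genes were called for CR at 15 months, and without CR replicate 5 there was 1. Calls among all genes in that contrast rose as well, from 126 (0.742%) to 732 (4.31%) without replicate 0 and to 492 (2.9%) without replicate 5. These pathway calls are therefore not particular to the pathway. With a common median the reversed values were Gpx1 0.0079 and Sod2 0.011 for CR at 15 months, Sod3 -0.0012 for CR at 5 months, Cat 0.0037 for the interaction. With quantile normalization the reversed values were Gpx1 0.019, Gpx4 0.074, Sod1 0.049, Sod2 0.018 and Sod3 -0.0035 for age in AL mice, Sod1 -0.0016 for CR at 15 months, Sod1 -0.042 for the interaction. With the region score as a covariate the reversed values were Gpx1 0.10, Gpx4 0.080, Prdx6 0.049, Sod3 -0.0059 and Txnip 0.21 for age in AL mice, Sod2 0.11 for CR at 15 months, Gpx1 -0.0060 for the interaction. With the choroid plexus score the reversed values were Gpx1 5.99e-05, Gpx4 0.015 and Nqo1 0.12 for age in AL mice, Gpx4 -0.022, Nqo1 -0.17, Sod1 -0.000139 and Sod3 -0.31 for CR at 5 months, Cat 0.086, Sod3 0.21 and Txnip 0.051 for the interaction. With the astrocyte score the reversed values were Sod2 0.018 for CR at 15 months, Gpx1 -0.014 and Nqo1 -0.048 for the interaction. With the 3 libraries that stand apart left out the reversed values were Sod3 -0.062 for age in AL mice, Sod1 -0.031 and Sod2 0.026 for CR at 15 months, Gpx4 -0.016, Nqo1 -0.084, Sod1 -0.0019 and Sod3 -0.21 for CR at 5 months, Sod1 -0.029, Sod3 0.16 and Txnip 0.0086 for the interaction. With single libraries left out, the ranges of values that crossed 0 were for age in AL mice Gpx1 (-0.063 to 0.0056), Sod2 (-0.11 to 0.048) and Sod3 (-0.062 to 0.17); for CR at 15 months Gpx1 (-0.064 to 0.042), Sod2 (-0.075 to 0.034) and Sod3 (-0.22 to 0.019); for CR at 5 months Cat (-0.12 to 0.022), Gpx1 (-0.087 to 0.0021), Gpx4 (-0.016 to 0.11), Nqo1 (-0.084 to 0.22), Sod1 (-0.0030 to 0.078), Sod3 (-0.21 to 0.12) and Txnip (-0.21 to 0.0011); for the interaction Cat (-0.11 to 0.027), Gpx1 (-0.020 to 0.092), Gpx4 (-0.0028 to 0.13), Nqo1 (-0.040 to 0.26), Sod1 (-0.032 to 0.075), Sod3 (-0.24 to 0.086) and Txnip (-0.23 to 0.098).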
